A study of Mus musculus with 12 samples.

Results

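The genes that write, copy and remove DNA methylation were followed through B cell activation and plasmablast differentiation. They are Dnmt1, Dnmt3a and Dnmt3b, which encode the DNA methyltransferases, Uhrf1, which encodes the factor that brings DNMT1 to newly copied DNA, and Tet1, Tet2 and Tet3, which encode the enzymes that oxidise 5-methylcytosine. They were taken by name as the rows of the deposited table that carry the mouse Entrez identifiers of these symbols. All 7 were found among 27179 genes, and all 7 passed the filter on low counts, which kept 12750 genes for testing.

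RNA was sequenced from splenic B cells of male C57BL/6 mice 6 to 12 weeks old (a C57BL/6 Pep3b background per the methods of the study), in 12 libraries that cover 6 stages with 2 biological replicates each. Naive B cells were sorted ex vivo as TCRβ-B220+IgM+IgDhi. The other cells were cultured with 25 µg/ml lipopolysaccharide (LPS), a ligand of Toll-like receptor 4. Per the methods of the study, the day 4 cells were cultured at a lower cell density than those sorted as undivided. Differences between 33 h and day 4 cannot be told apart from this difference in density. Those sorted as undivided had been labelled with CellTrace Violet, a dye that is diluted at each division. Activated cells that had kept the highest dye signal, and so had not divided, were sorted at 3, 10 and 33 h as TCRβ-CD69+, and on day 4 the sort separated expanded B cells, with CD22 and without CD138, from plasmablasts, with CD138 and without CD22. The expanded cells carry the label "activated B cell" in the deposited records. The labels name the strain with no genetic change and no agent other than LPS, and the sources do not say whether cells of different stages came from the same animals.

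DNA methylation in mammals sits mostly on cytosines followed by guanine. DNMT3A and DNMT3B set new marks, whereas DNMT1 copies marks onto the new strand after replication, guided by UHRF1, which recognises DNA methylated on a single strand. TET enzymes convert the mark step by step to forms that are lost by dilution at replication or cut out by the glycosylase TDG. In B cells these enzymes are known for roles in germinal centre responses and in the choice of plasma cell fate, and loss-of-function mutations of TET2 and DNMT3A are frequent in blood cancers.

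Total counts per library ran from 23026619 to 60585587. The list of 7 B cell markers, with Cd79a, Cd79b, Ms4a1, Cd22, Pax5 and Ebf1 among them, was detected in every library, and its summed level was lowest in plasmablasts, at 2120 and 2060 CPM (counts scaled to the library total). Cd22 was at 1.36 and 1.14 CPM in plasmablasts and Jchain, the joining chain of secreted antibody, at 12600 and 11700 CPM, against 581 and 740 CPM in expanded B cells. The naive libraries stood apart in markers of other cells. All 10 myeloid markers were detected there, with sums of 283 and 124 CPM, against 0.341 to 37.5 CPM in the other libraries, and Lyz2 was at 131 and 54.9 CPM against at most 0.0527 CPM elsewhere. Of the erythroid list, 7 markers were measured, and their sums were 198 and 147 CPM in naive libraries and 0.347 to 2.39 CPM elsewhere. The part of these cells in the naive values below was not tested. The sums of 10 T cell markers ran from 22.5 to 80.7 CPM and came mostly from Lck and, in plasmablasts, Cd28, while Cd3e stayed at or under 0.235 CPM. Between replicates, the SD of the log2 ratio over all genes was 0.30 in expanded B cells and 0.53 at 3 h, the widest of the stages.

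Promoters are given first, as a description of letters only. Motifs of the E2F factors, which are known to act on genes of the G1 to S phase transition, were among those searched. Whether these motifs have a part in any change in level was not tested. RefSeq (GRCm38.p6, the patch release of mm10) gave 12 windows of 300 bases for the 7 genes, each from 250 bases before a start site to 50 after it. On the 5′ to 3′ strand of each gene, the windows of Dnmt1 (chr9:20952574-20952873, minus strand) and Uhrf1 (chr17:56304063-56304362, plus strand) are shown with E2F matches in capitals. Those of Dnmt3b (chr2:153649199-153649498, plus strand) and Tet2 (chr3:133544341-133544640, minus strand) hold no match. All 4 windows were picked with the levels of the genes known.
Dnmt1: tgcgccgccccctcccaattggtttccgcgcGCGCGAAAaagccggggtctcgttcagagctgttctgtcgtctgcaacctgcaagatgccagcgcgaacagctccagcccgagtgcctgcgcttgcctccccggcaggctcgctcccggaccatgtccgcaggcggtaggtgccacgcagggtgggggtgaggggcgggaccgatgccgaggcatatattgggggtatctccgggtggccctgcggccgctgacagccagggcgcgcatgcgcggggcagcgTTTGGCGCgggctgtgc
Uhrf1: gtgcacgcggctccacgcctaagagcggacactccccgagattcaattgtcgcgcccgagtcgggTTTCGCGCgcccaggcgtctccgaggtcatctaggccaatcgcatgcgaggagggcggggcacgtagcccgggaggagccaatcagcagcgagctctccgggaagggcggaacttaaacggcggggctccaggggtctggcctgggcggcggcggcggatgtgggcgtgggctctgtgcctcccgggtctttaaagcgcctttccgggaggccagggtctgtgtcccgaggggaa
Dnmt3b: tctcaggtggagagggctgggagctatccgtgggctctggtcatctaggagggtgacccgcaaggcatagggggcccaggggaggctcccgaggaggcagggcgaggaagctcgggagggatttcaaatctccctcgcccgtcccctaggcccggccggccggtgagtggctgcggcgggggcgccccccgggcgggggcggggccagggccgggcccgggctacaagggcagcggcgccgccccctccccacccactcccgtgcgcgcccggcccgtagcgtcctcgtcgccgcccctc
Tet2: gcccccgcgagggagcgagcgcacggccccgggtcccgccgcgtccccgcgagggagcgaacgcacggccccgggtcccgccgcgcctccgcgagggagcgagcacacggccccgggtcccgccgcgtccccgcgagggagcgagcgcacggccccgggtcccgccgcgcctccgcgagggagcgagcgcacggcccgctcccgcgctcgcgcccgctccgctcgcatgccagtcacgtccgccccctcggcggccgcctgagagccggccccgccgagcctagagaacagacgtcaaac

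The E2F motifs searched, on both strands, were TTTGGCGC, TTTCCCGC, TTTGGCGG and TTTCGCGC. Counted from the start site as 0, the Dnmt1 window held TTTCGCGC on the opposite strand at -219 to -212 and TTTGGCGC at 33 to 40, and the Uhrf1 window held TTTCGCGC at -185 to -178. No other window of the 7 genes held any of the 4, which were present in 2.37% of all 32851 windows and in the windows of 2.7% of 27025 genes. The NF-Y box CCAAT was found in 5 of the 12 windows, of Dnmt1, Uhrf1 and Tet3, against 37.4% of all windows. In Dnmt1, boxes on opposite strands at -236 to -232 and -233 to -229 shared bases. The CHR element TTTGAA was found in 1 window each of Dnmt1 and Dnmt3b (17.9% of all windows), the E box CACGTG in 1 window of Dnmt3a (7.15%), and the NF-kB motif in none (0.155%). A match is a string of letters and not a bound site, and the counts per gene do not tell which start site was used.

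The windows also differed in CpG content. All windows had a median of 7 CpG, with quartiles of 3 and 20. The Tet2 window held 57, with a GC content of 81.3%, and stood at the 99.8th percentile, and the windows of Dnmt3a at the upstream start sites held 46 and 47. The printed Dnmt1 and Uhrf1 windows held 33 each, Dnmt3b 30, Tet3 22 and Tet1 17, whereas the window at the far 5′ end of Dnmt1 held 2.

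Levels are given as RPKM, the deposited counts scaled for exon length and TMM-scaled library size, so that genes can be set beside each other. A call means an adjusted p-value (Benjamini-Hochberg) under 0.05 from edgeR's glmTreat against a fold change of 1.5, fitted to all 12 libraries. As the RNA came from bulk samples, fewer cells of a type and less RNA per cell cannot be told apart.

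**Figure D1:**
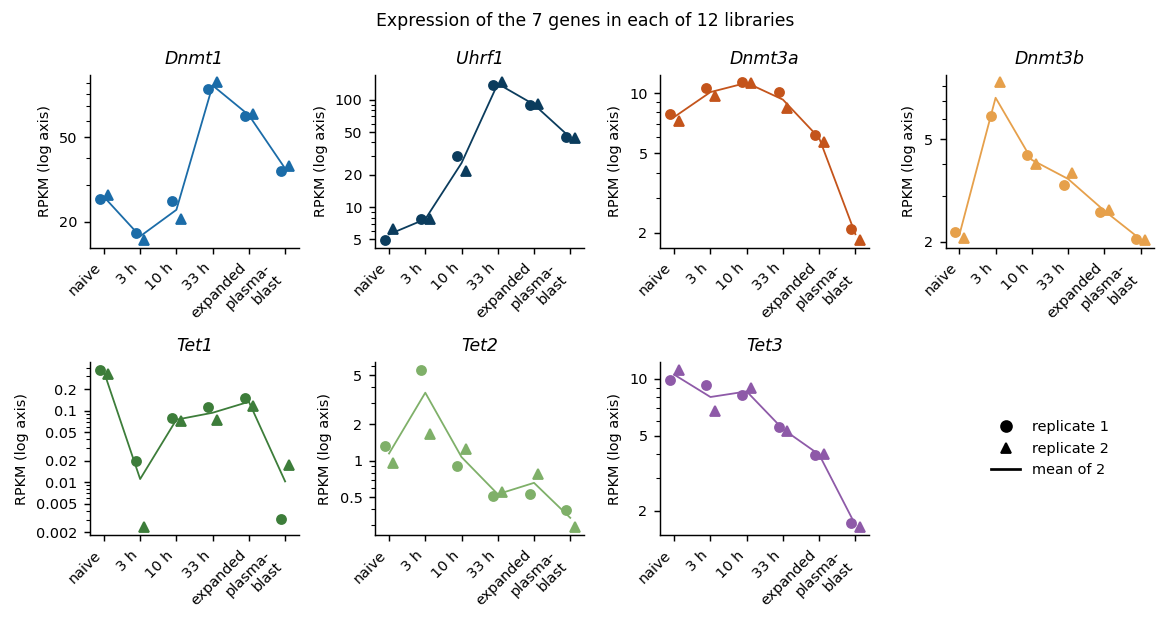
RPKM of the 7 genes (log axis, scaled for each gene) by stage, with a circle for replicate 1, a triangle for replicate 2 and a line through the mean of the 2. Dnmt1 and Uhrf1 were highest at 33 h, Dnmt3b and Tet2 at 3 h, Dnmt3a at 10 h, and Tet1 and Tet3 in naive cells.

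Dnmt1 (Entrez 13433, chr9:20907206-20959888), the maintenance methyltransferase, had the highest level of the 3 methyltransferase genes in every library. In RPKM, the pair of naive libraries held 25.7 and 26.8, followed by 17.8 and 16.4 (3 h), 25.0 and 20.6 (10 h), 85.0 and 90.9 (33 h), 63.1 and 64.3 (expanded) and 34.7 and 36.7 (plasmablasts). The lowest stage was thus 3 h and the highest 33 h, 5.14-fold apart in mean level, and no other stage overlapped with 33 h. By the quasi-likelihood F-test without a fold threshold, each stage differed from the next in the order of levels except naive cells and 10 h (adjusted p = 0.079).

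Uhrf1 (Entrez 18140, chr17:56303337-56323486) had the widest span of the 7 genes after Tet1. From 4.93 and 6.24 RPKM in the naive libraries its level passed through 7.71 and 7.77 (3 h), 29.7 and 21.8 (10 h), 137 and 145 (33 h), 88.6 and 91.8 (expanded) to 45.2 and 43.7 (plasmablasts). The stages did not overlap, the mean at 33 h was 25.2-fold that in naive cells, and every stage differed from the next in the order (F-test, adjusted p of 0.0091 or less).

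Dnmt3a (Entrez 13435, chr12:3801559-3914443) was not called at any transition before the last. The libraries held 7.90 and 7.28 RPKM (naive), 10.6 and 9.62 (3 h), 11.3 and 11.2 (10 h), 10.1 and 8.44 (33 h), 6.2 and 5.72 (expanded) and 2.10 and 1.84 (plasmablasts). The stages of 10 h, 3 h and 33 h were not separated from their neighbours in the order (adjusted p = 0.24 and 0.33), and the plasmablast libraries lay below all others. An antisense transcript, Dnmt3aos, shares 133 exon bases with Dnmt3a in GENCODE, and the strand setting of the counting is not given in the sources used here, so reads from the 2 cannot be told apart there.

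Dnmt3b (Entrez 13436, chr2:153649411-153687730) was highest 3 h after activation. In RPKM, the pair of naive libraries held 2.18 and 2.07, followed by 6.17 and 8.29 (3 h), 4.32 and 3.99 (10 h), 3.31 and 3.70 (33 h), 2.62 and 2.66 (expanded) and 2.06 and 2.03 (plasmablasts). Its level thus ended where it began, and naive cells and plasmablasts were not separated (adjusted p = 0.74). Nor were 10 h and 33 h (0.16), or expanded and naive B cells (0.071).

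Tet1 (Entrez 52463, chr10:62804570-62887469) was the lowest of the 7 genes in every library. Its counts were 178 and 119 (naive), 5 and 1 (3 h), 53 and 38 (10 h), 93 and 36 (33 h), 85 and 54 (expanded) and 1 and 7 (plasmablasts). Pooled over replicates, this was 4.35 CPM in naive cells (exact Poisson 95% interval 3.87 to 4.88), 0.0984 CPM at 3 h (0.0361 to 0.214) and 0.111 CPM in plasmablasts (0.0481 to 0.22). These intervals cover counting error only. Tet1 was thus near the limit of detection at 3 h and in plasmablasts, and at 10 h, 33 h and in expanded B cells it lay in between, at 1.06, 1.33 and 1.8 CPM. Of these 3 stages, neighbours were not separated by the F-test (adjusted p = 0.46 and 0.29).

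Tet2 (Entrez 214133, chr3:133463677-133545136) was the gene whose replicates disagreed most at 3 h apart from Tet1. From 1.33 and 0.963 RPKM in the naive libraries its level passed through 5.57 and 1.65 (3 h), 0.903 and 1.24 (10 h), 0.511 and 0.553 (33 h), 0.534 and 0.784 (expanded) to 0.397 and 0.284 (plasmablasts). Both 3 h libraries lay above all other libraries, but replicate 1 was far above replicate 2 (917 and 461 counts at total counts of 23026619 and 37947217). Past 3 h no pair of neighbours in the order was separated (adjusted p of 0.23 or more). A transcript on the opposite strand, Gm42567, shares 43 exon bases with Tet2.

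Tet3 (Entrez 194388, chr6:83362373-83457208) held 62.4% to 89.9% of the summed TET RPKM in each library. The libraries held 9.89 and 11.2 RPKM (naive), 9.27 and 6.78 (3 h), 8.21 and 8.97 (10 h), 5.56 and 5.28 (33 h), 3.96 and 3.98 (expanded) and 1.73 and 1.63 (plasmablasts). The 3 h and 10 h libraries overlapped (adjusted p = 0.51), and from 33 h on each stage lay below the stage before it. Over the 7 genes, 20 of 35 pairs of neighbours in the order of levels passed the F-test. These pairs follow from the measured order, and at the 14 pairs of stages concerned 65% of all genes passed.

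In the first 3 h after activation, Dnmt3b and Tet2 rose and Tet1 fell. Dnmt3b rose by 1.77 on the log2 scale (SE 0.15, 3.41-fold, adjusted p = 2.4e-06) and Tet2 by 1.63 (SE 0.47, adjusted p = 0.03). Tet1 fell by 5.25 (SE 0.54, adjusted p = 3.4e-06), and its CPM was 44.2-fold higher in naive cells (95% counting interval 20.1 to 122). Up calls were made for 2 of 7 genes against 21% of all genes, and down calls for 1 of 7 against 24.3%. All 7 passed the F-test, as did 71% of all genes. Among those not called by glmTreat, Dnmt1 (-0.62, adjusted p = 0.28) and Tet3 (-0.39) were lower and Uhrf1 (0.48) and Dnmt3a (0.41) higher at 3 h. The Tet2 call rested on replicate 1 at 3 h: without that library its log2 fold change was 0.52 (adjusted p = 0.54), and without naive replicate 2 it was 1.43 (0.097). The naive libraries were those with myeloid and erythroid RNA, whose part in the fall of Tet1 was not tested.

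Between 3 h and 10 h, Uhrf1 rose and Dnmt1 was not called. The log2 fold change of Uhrf1 was 1.74 (SE 0.14, adjusted p = 5e-06), whereas that of Dnmt1 was 0.42 (SE 0.10, adjusted p = 1). Tet1 rose by 3.03 (SE 0.63, adjusted p = 0.0036) and Tet2 fell by 1.74 (SE 0.46, adjusted p = 0.03). Up calls were thus made for 2 of 7 genes against 17.4% of all genes and down calls for 1 of 7 against 13.4%, and 5 of 7 passed the F-test against 62.3%. Dnmt3b (-0.80, SE 0.14) missed the threshold at an adjusted p of 0.062, and passed it with DESeq2's size factors (0.024) and without 3 h replicate 1 (-1.0, 0.0031). Without 3 h replicate 2, which held a single Tet1 count, the log2 fold change of Tet1 was 1.87 (0.068). Without 3 h replicate 1 that of Tet2 was -0.63 (0.47), and without 10 h replicate 1 it was -1.53 (0.13).

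The approach to the first division, from 10 h to 33 h, brought the largest rise of the maintenance pair. Uhrf1 rose by 2.45 on the log2 scale (SE 0.14, 5.48-fold, adjusted p = 8.6e-08) and Dnmt1 by 1.95 (SE 0.10, 3.85-fold, adjusted p = 6.8e-08). They were 2 of 7 genes called up, against 10.1% of all genes. None was called down, against 4.45%. Tet3 was lower at 33 h (-0.66, SE 0.13, adjusted p = 0.42) and was the only other gene to pass the F-test, which 3 of 7 genes passed against 45.5% of all genes. Dnmt3a (-0.28), Dnmt3b (-0.25), Tet2 (-1.01) and Tet1 (0.35) passed neither test.

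From 33 h to expanded B cells 0 of 7 genes were called by glmTreat, where 6.94% of all genes were called up and 3.66% down. None had an unadjusted p under 0.05 in that test and none was called by DESeq2's Wald test. The F-test was passed by 5 of 7 genes against 39.6% of all genes. They were Uhrf1 (-0.65, adjusted p = 0.0018), Dnmt3a (-0.64), Dnmt1 (-0.47), Tet3 (-0.45) and Dnmt3b (-0.41), all lower in expanded B cells. This transition spans several divisions, and the levels of Dnmt1 and Uhrf1 in both expanded libraries were still above those in every naive, 3 h and 10 h library.

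**Figure D2:**
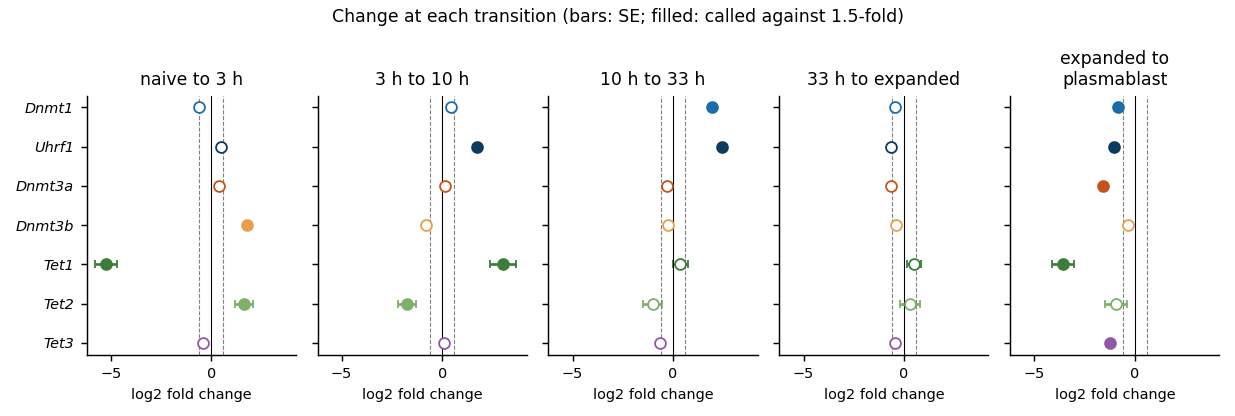
Log2 fold change (later minus earlier stage) of the 7 genes at the 5 consecutive transitions, with bars for the SE. Filled points passed glmTreat against 1.5-fold (dashed lines) and open points did not. The called points were 3, 3, 2, 0 and 5, and those of the last transition all lay below 0.

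Plasmablasts differed from expanded B cells in 5 of 7 genes, all lower, against 12.2% of all genes called down and 13.9% called up. Tet1 fell by 3.59 (SE 0.55, adjusted p = 0.00036), Dnmt3a by 1.60 (SE 0.12, adjusted p = 2.5e-06), Tet3 by 1.24 (SE 0.14, adjusted p = 0.00026), Uhrf1 by 1.02 (SE 0.13, adjusted p = 0.0033) and Dnmt1 by 0.84 (SE 0.10, adjusted p = 0.012). Dnmt3b (-0.37, adjusted p = 1) and Tet2 (-0.96, SE 0.54, adjusted p = 0.41) were not called, although their plasmablast libraries also lay below the expanded ones. The F-test was passed by 6 of 7 genes against 56.9% of all genes. The median log2 fold change of the 7 genes was -1.02, against -0.046 over all genes. The Dnmt1 call was lost with DESeq2's Wald test (adjusted p = 0.20), without plasmablast replicate 1 (0.10) and without expanded replicate 2 (0.052).

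Set against naive cells, plasmablasts had a higher level of Uhrf1 and lower levels of Dnmt3a, Tet1, Tet2 and Tet3. Uhrf1 was higher by 3.00 (SE 0.14, 7.98-fold, adjusted p = 2.1e-09), which was 1 of 7 genes against 26.6% of all genes called up. Tet1 (-4.98, SE 0.51), Tet3 (-2.65, SE 0.14), Dnmt3a (-1.95, SE 0.12) and Tet2 (-1.76, SE 0.53, adjusted p = 0.031) were lower, 4 of 7 genes against 23.4% called down. Dnmt1 (0.44, adjusted p = 0.96) and Dnmt3b (-0.06, adjusted p = 1) were not called. The Tet2 call was lost without either plasmablast library (adjusted p = 0.051 and 0.13) and without naive replicate 1 (0.087). This comparison shares its libraries with the first and the last transition, and the marker sums of the naive libraries given above apply here too.

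The makeup of each family moved with these changes. Dnmt1 held 71.8% and 74.1% of the summed methyltransferase RPKM in naive cells and 51.5% and 47.8% at 3 h, while Dnmt3b went from 6.09% and 5.73% to 17.8% and 24.2%. The sum itself was alike, at 35.8 and 36.2 RPKM in naive cells and 34.6 and 34.3 RPKM at 3 h. At 33 h Dnmt1 held 86.3% and 88.2% of a sum of 98.4 and 103 RPKM, and in plasmablasts 89.3% and 90.5% of 38.9 and 40.5 RPKM. The ratio of Dnmt3a to Dnmt3b RPKM was 3.63 and 3.51 (naive), 1.73 and 1.16 (3 h) and 1.02 and 0.904 (plasmablasts). Its size depends on the exon lengths used, 9852 bases for Dnmt3a and 4322 for Dnmt3b, against 16642 and 5106 in GENCODE. A ratio near 1 thus does not show that the 2 genes had the same RNA level.

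Among the TET genes, the summed RPKM went from 11.6 and 12.5 in the naive libraries to 4.65 and 4.88 (expanded) and 2.13 and 1.93 (plasmablasts). Tet2 held 37.5% and 19.6% at 3 h and 7.73% to 18.6% in every other library. Tet1 held at most 3.25% in any library. The ratio of Uhrf1 to Dnmt1 was 0.192 and 0.233 in the naive libraries, then 0.432 and 0.475 (3 h), 1.19 and 1.06 (10 h), 1.62 and 1.60 (33 h), 1.40 and 1.43 (expanded) and 1.30 and 1.19 (plasmablasts). No test was made of these shares and ratios. They too depend on the exon lengths used, which for Tet2 were 9181 bases as deposited and 16870 in GENCODE.

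**Figure D3:**
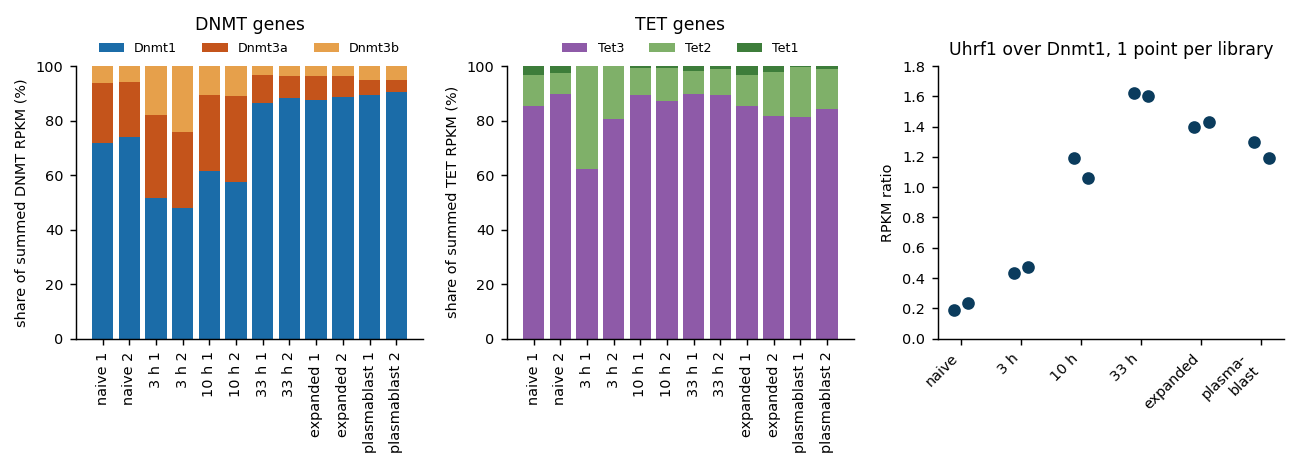
Share of each gene in the summed RPKM of the methyltransferase genes (left) and TET genes (middle) as stacked bars (%), 1 bar per library, and the RPKM ratio of Uhrf1 to Dnmt1 (right), 1 point per library. Dnmt1 held the least at 3 h, Tet3 the most in every library, and the ratio ran from 0.192 in naive cells to 1.62 at 33 h.

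DNA replication genes were taken as the reference for the maintenance pair, since methylation is copied as DNA is copied. Of 25 such genes, all tested, 24 were called up from 10 h to 33 h (10.1% of all genes), with a median log2 fold change of 2.20, against -0.024 over all genes, and 20 had their highest mean level at 33 h. The values of Dnmt1 (1.95) and Uhrf1 (2.45) lay on either side of that median. Rrm2, a subunit of ribonucleotide reductase, rose by 4.44 and Tk1, thymidine kinase, by 3.84. From 3 h to 10 h, 15 were called up and 2 down (17.4% and 13.4% of all genes), Cdc6 (2.41) and Tyms (2.80) among those up, and the median was 1.01, between Dnmt1 (0.42) and Uhrf1 (1.74). In the first 3 h 6 were up and 4 down (21% and 24.3%). From expanded B cells to plasmablasts 1 was up and 3 were down (13.9% and 12.2%), with a median of -0.48. The falls of Dnmt1 and Uhrf1 given above were larger than this median. Both lay within the range of the 25, from -1.08 (Pold1) to 0.81 (Cdt1). Against naive cells, 23 of the 25 were still up in plasmablasts (26.6% of all genes) and 1, Pold1 (-1.22), was down (23.4%).

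**Figure D4:**
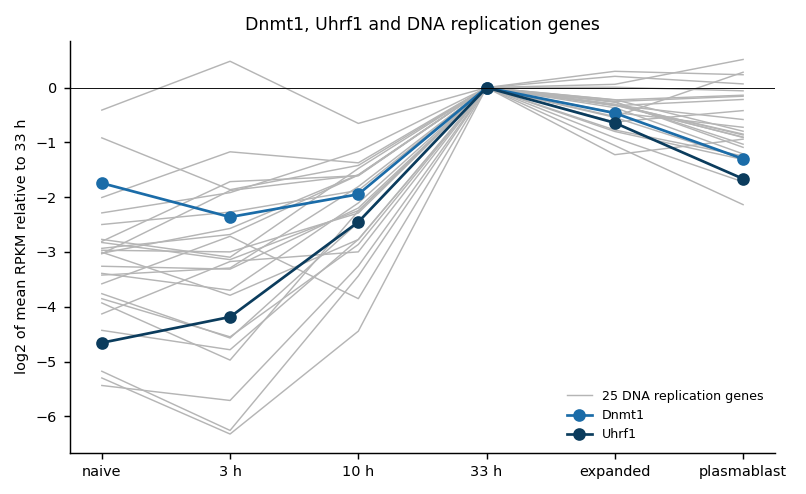
Log2 of the mean RPKM of 2 libraries relative to 33 h, by stage, for Dnmt1, Uhrf1 and 25 DNA replication genes (grey). Dnmt1 and Uhrf1 were highest at 33 h like 20 of the 25, and Uhrf1 lay below Dnmt1 at every stage other than 33 h, which is its wider span.

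The partners of maintenance methylation, of which 16 of 18 listed genes were tested, moved in part with Dnmt1 and Uhrf1. From 10 h to 33 h 4 were called up, against 10.1% of all genes, and none down, against 4.45%. They were Pclaf, which binds the replication clamp (5.20, SE 0.17), Lig1, the ligase of lagging strands (2.95, SE 0.12), Hells, a remodeller that aids methylation of packed chromatin (1.94, SE 0.15), and Pcna, the clamp itself (1.54, SE 0.08). Hells and Cdca7l had already risen from 3 h to 10 h (1.06 and 2.30), when 4 were up (17.4% of all genes) and none down (13.4%). In the first 3 h 4 were up, Cdca7 (1.67) and Pcna (1.03) among them, and 3 down, Pclaf (-1.68) and Ehmt2 (-1.18) among them, beside 21% and 24.3% of all genes. In plasmablasts 6 fell from the level of expanded B cells (12.2% of all genes) and 1 rose (13.9%). Cdca7, which recruits HELLS, fell by 2.36, Cdca7l by 1.84, Hdac1 by 1.43 and Hells by 1.38, whereas Uhrf2, the paralog of Uhrf1, rose by 0.85 (SE 0.09, adjusted p = 0.0075). The median of the list was -0.68, against -0.046 over all genes. Dnmt3l, the cofactor of the de novo enzymes, had at most 42 counts in a library and was at 0 in 3 of the last 4 libraries.

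Of genes for the supply of S-adenosylmethionine, the methyl donor, 14 were tested. In the first 3 h 6 were called up, against 21% of all genes, and none down, against 24.3%, with a median log2 fold change of 0.64. Mat2a, which makes the donor, rose by 2.81 (SE 0.11, adjusted p = 1.3e-09), from a mean of 46.6 to 327 RPKM, Shmt1 by 2.05, Ahcyl2 by 1.96 and Mtrr by 1.58. From 3 h to 10 h 5 were up (17.4% of all genes), Adk by 2.80 and Shmt2 by 1.63 among them. Another 2 were down (13.4%), Mat2a by 1.5 and Ahcyl2 by 0.90. In plasmablasts 5 were below expanded B cells (12.2% of all genes) and none above (13.9%), Mthfd1 by 1.32 and Ahcyl2 by 1.19 among them.

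The list for removal of oxidised or deaminated cytosine also takes in the Gadd45 genes, which do not encode enzymes that act on cytosine. Of its 15 genes, 14 were tested. By 3 h 6 had risen, namely Gadd45b (4.79), Gadd45g (2.52), Ung (2.29), Apex1 (2.12), Tdg (2.04) and Lig3 (1.16), while Neil3 (-1.43) and Gadd45a (-0.94) had fallen, beside 21% of all genes up and 24.3% down. Tdg, the glycosylase that removes the products of TET enzymes, went from a mean of 5.31 to 21.8 RPKM and stood at 16.0 to 20.4 RPKM later, while the summed TET RPKM was lower in each later stage than in naive cells apart from 3 h replicate 1. Neil3 rose by 5.33 from 10 h to 33 h. At that transition 2 of the list were up and 3 down (10.1% and 4.45% of all genes). At the last 1 was up and 3 were down (13.9% and 12.2%).

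The list of methyl-CpG binding proteins also takes in family members by name, and not all of these read the mark. Of its 8 genes tested, 4 were called down by 3 h, against 24.3% of all genes, and none up, against 21%. The median over the list was -0.85. Zbtb38 fell by 3.2, Zbtb4 by 2.55, Mbd4 by 2.08 and Mbd5 by 1.34. Zbtb38 and Mbd4 then rose from 3 h to 10 h (1.96 and 0.87). In plasmablasts Zbtb38 (1.33) and Mbd1 (1.11) were called up from expanded B cells and none down, beside 13.9% and 12.2% of all genes.

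Among cofactors and partners of TET enzymes, 13 genes were tested, and 4 were up and 3 down by 3 h, beside 21% and 24.3% of all genes. Idh2, a mitochondrial source of the 2-oxoglutarate that TET enzymes need, fell by 2.09 and rose by 2.58 over the following interval. D2hgdh and Cxxc5 fell by 1.94 and 1.97. From 3 h to 10 h 2 were up and 3 down (17.4% and 13.4% of all genes). At the last transition 2 were up (13.9%), Cxxc5 (1.48) and Idh2 (0.79), and 2 down (12.2%), Ebf1 (-1.26) among them. Of 12 genes of histone methylation that guides the de novo enzymes, Kdm2b rose by 2.99 and Suv39h2 by 2.51 in the first 3 h, with 3 up (21% of all genes) and 1 down (24.3%). Kdm2b fell by 2.29 by 10 h, and Nsd2 rose by 1.83 from 10 h to 33 h. Setd2, whose mark is read by DNMT3B, fell by 0.96 from expanded B cells to plasmablasts. It was the only one of the 12 called there, beside 12.2% of all genes down and 13.9% up. Between naive cells and plasmablasts 2 of the 12 were up and 5 down (26.6% and 23.4% of all genes).

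Germline genes, a class known to be kept silent by promoter methylation, were mostly at low counts. Of 18 listed, 4 passed the filter to be tested, 6 had no count in any library and the other 8 had at most 14 counts in a library. Piwil2 rose in the first 3 h (3.38, SE 1.11, adjusted p = 0.03) from 0 and 3 counts and reached 183 and 154 counts in expanded B cells. Brdt fell by 1.81 and later rose by 1.90 from 33 h to expanded B cells. These 8 lists held 133 names in all, of which 106 were tested, and none was in more than 1 of the 8, while Ebf1 is also among the B cell markers.

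**Figure D5:**
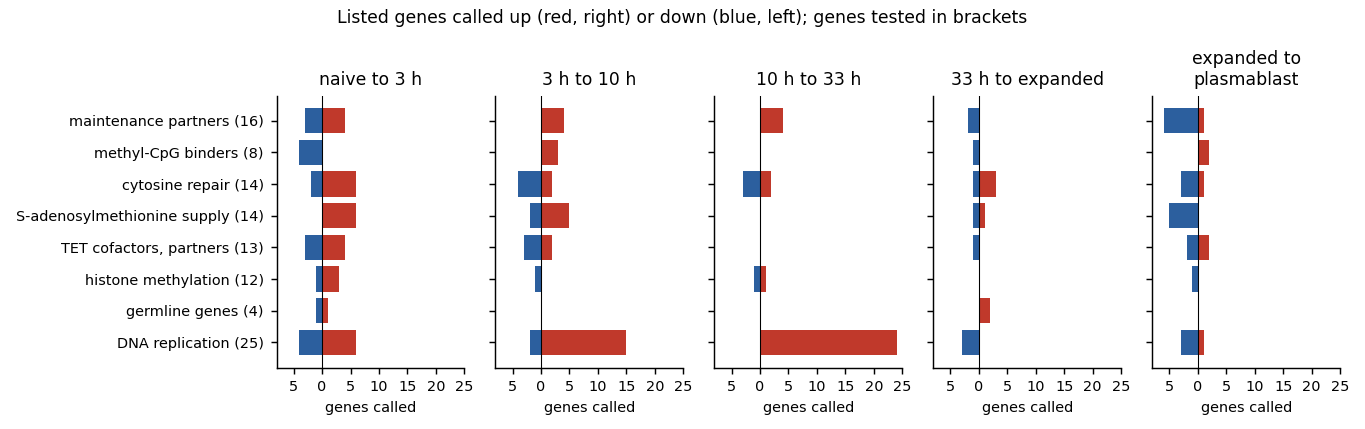
Number of genes called up (red, to the right) and down (blue, to the left) by glmTreat at each transition in the 8 lists, with the number tested in brackets. The largest bar is that of 24 DNA replication genes called up from 10 h to 33 h.

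The genes whose pattern was most like that of each of the 7 were found by Pearson's r of log2 RPKM over the 6 stage means, which share libraries and scaling between genes. They were picked as the highest of all genes tested over 6 points, so a high r follows in part from the choice. Pearson's r also does not measure the size of a change. For Dnmt1 they were Rtkn2 (r = 0.9894), Camkk1 (0.9865) and Chaf1b (0.9853), the last a subunit of a chromatin assembly factor at the fork, with r of 0.905, 0.978 and 0.982 over the 12 libraries. For Uhrf1 they were Fignl1 (0.9959), Klhdc10 (0.9957) and Mcm2 (0.9944), a subunit of the replicative helicase, with r of 0.995, 0.978 and 0.993 over libraries. Klhdc10 went from 5.1 RPKM in naive cells to 9.97 RPKM at 33 h, and Uhrf1 from 5.59 to 141 RPKM. Dnmt3a was most like Slc39a10 (0.9956), Cnpy3 (0.9944) and Sf3b2 (0.994). Cnpy3, which assists the folding of Toll-like receptors, went from 97.3 RPKM at 10 h to 5.69 RPKM in plasmablasts.

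Dnmt3b was most like Gnl2 (0.998), a nucleolar GTPase, Pus1 (0.9952), a pseudouridine synthase, and Mat2a (0.9945). Their means were 153, 83.5 and 327 RPKM at 3 h and 31.4, 18.4 and 46.6 RPKM in naive cells. Tet1 was most like Ehd2 (0.9986), Slc25a20 (0.9948) and Zfp385a (0.9917), Tet2 like Sav1 (0.9965), Yy1 (0.9938) and Gm6524 (0.9908), and Tet3 like Gopc (0.9987) and Zbtb18 (0.993). Zbtb18 went from 21.8 RPKM in naive cells to 1.56 RPKM in plasmablasts. Over the 12 libraries r was lowest for Gm6524 with Tet2 (0.646), Slc39a10 with Dnmt3a (0.878) and Ehd2 with Tet1 (0.898). Within the group of 7, over the 12 libraries, r was highest for Dnmt3a with Tet3 (0.89) and Dnmt1 with Uhrf1 (0.88) and lowest for Tet2 with Uhrf1 (-0.68).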

How the data were processed

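The deposited counts, made by the authors per the labels and methods with Rsubread and featureCounts on the inbuilt Entrez annotation of mm10, were neither normalized nor filtered. The reads came from TruSeq libraries on a NextSeq instrument, and CASAVA 1.8.2 is named in the submitters' processing notes. Mitochondrial, ribosomal RNA, X, Y, variable immunoglobulin and unmatched genes were removed (3479, which left 23700), and filterByExpr kept 12750. With R 4.3.3 and edgeR 4.0.16 (limma 3.58.1), libraries were TMM-scaled, and a robust quasi-likelihood model (the earlier method) with a term for each stage was fitted to all 12 libraries. Consecutive stages, and naive cells with plasmablasts, were compared with glmTreat against 1.5-fold, and neighbouring levels with the F-test, with Benjamini-Hochberg adjustment over all genes tested. RPKM used the deposited exon lengths, and CPM the total counts. Log2 RPKM for correlations used a prior count of 2. The smallest p of an exact two-sided permutation test of 2 against 2 libraries is 0.333, so none was run. Filtering, scaling and the glmTreat call were tested on counts simulated from the fit, for expanded B cells and plasmablasts only. The other steps were not tested in this way. Alternatives were DESeq2 1.42.0 (size factors, Wald test), library size alone, the F-test, other filters and dispersions, a replicate block, fits to 4 libraries, keeping removed genes, and leaving out each library.

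The 7 genes, the gene lists, the motifs and the tests were chosen with earlier results of these data known. All 7 genes are named in each comparison, with the 3 genes most like each and up to 4 called genes of each list and transition with the largest changes. Genes named beyond these (Dnmt3l, Tdg's later levels and further called genes of a list) were chosen after their values were seen. Some genes that this rule picks are not reported here. Replicates are biological duplicates, and the main fit did not pair them by number across stages. Correlations of the differences between replicates over 15 pairs of stages ran from -0.14 to 0.08. These cannot tell whether stages shared animals, since replicate numbers need not match between stages. The Hi-C data of the study were not used here.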

Additional observations from a re-analysis of the deposited data

How the results depend on the processing

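Log2 fold changes of the 7 genes in 6 comparisons were recomputed under 24 alternatives, which gave 988 values. Of these, 946 kept their direction and their side of the threshold, 18 lost the call, 22 gained it and 2 reversed. Both reversed values were near 0 and uncalled: Tet3 from 3 h to 10 h was -0.14 without 3 h replicate 2 (range on leaving out 1 library -0.14 to 0.34), and Tet1 from 10 h to 33 h was -0.04 without 33 h replicate 1 (-0.04 to 0.60). Lost calls were 14 for Tet2, 3 for Dnmt1 in plasmablasts and 1 for Tet1 from 3 h to 10 h. The F-test without a fold threshold raised the genes called of 7 from 3 to 7 (naive to 3 h), 3 to 5 (3 h to 10 h) and 0 to 5 (33 h to expanded). Of the 106 listed genes tested, those called rose from 48, 43, 35, 15 and 27 to 80, 76, 63, 58 and 69 over the 5 transitions. Of all genes, glmTreat called 21%, 17.4%, 10.1%, 6.94% and 13.9% up and 24.3%, 13.4%, 4.45%, 3.66% and 12.2% down. The F-test was passed by 71%, 62.3%, 45.5%, 39.6% and 56.9% of all genes. Listed genes called from 33 h to expanded numbered 8 with DESeq2's Wald test and 9 with at least 10 counts in every library. From expanded to plasmablast, library size alone called 1181 of all genes up and 2953 down, against 1776 and 1553 in the main fit. Counts over all genes are not given for the Wald test, the filter of 10 counts or the fits without 1 library. At this last transition the listed genes called numbered 47 with library size alone and 16 with the Wald test. Leaving out 1 library gave 7 to 17 from 33 h to expanded (7 without expanded replicate 1, 9 without 33 h replicate 1) and 16 to 29 from expanded to plasmablast (16 without plasmablast replicate 1). Library size alone moved the median log2 fold change of all genes by -0.21 (naive to 3 h), 0.33 (3 h to 10 h), -0.34 (expanded to plasmablast) and -0.28 (naive to plasmablast), and the share of up calls at these from 46.3%, 56.5%, 53.3% and 53.1% to 36%, 77.4%, 28.6% and 41.3%. Under it Dnmt1 passed at the first 2 transitions (-0.83 and 0.75). A replicate block changed none of the 42 calls. The filter of 10 counts removed Tet1. Of the 3 genes most like each, 2 were also chosen by Pearson's r over the 12 libraries (0 for Tet2), and 0 or 1 by Spearman's rho. Without the naive libraries, an alternative added after the data were seen, none of 28 calls after 3 h changed. With 1 library left at a stage, that library is assumed to vary like the other stages. With 2 libraries a stage, and Tet1 and Tet2 at low counts, changes near 1.5-fold cannot be resolved.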
